A study of Caenorhabditis elegans with 18 samples.

Results

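The chromosome axis and the synaptonemal complex are the protein structures that hold homologous chromosomes together in meiotic prophase, and 10 genes that encode them in Caenorhabditis elegans were followed here: syp-1, syp-2, syp-3, syp-4, htp-1, htp-2, htp-3, him-3, rec-8 and lab-1. They were found by symbol in the deposited table of protein-coding gene counts, where they make up 10 of 20191 genes. All intervals that the deposited intron table assigns to them were used as well, 45 of 106818 intervals. The rule used names alone, and the names were chosen with earlier results of these data known.

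The worms were young adult hermaphrodites, synchronized and not yet forming embryos, that carried mog-7::degron::gfp together with the transgene sun-1p::TIR1::mRuby. All 3 groups share this genotype. MOG-7 is a pre-mRNA splicing factor, here fused to a degron, and TIR1 is a plant protein that binds the degron in the presence of auxin so that the fusion is degraded. The sun-1 promoter drives TIR1 in the germline, so somatic cells keep the fusion protein. The groups were auxin for 1 h, auxin for 2 h and ethanol for 2 h as the control, with 6 libraries of poly-A RNA each. The 1 h auxin group is thus compared with ethanol for 2 h, and no ethanol group of 1 h was analysed here. Every group has 1 library from each of the batches I, II, V, VII, VIII and X. Auxin-treated worms without the degron or TIR1 were not analysed here, and effects of auxin as a chemical and of MOG-7 depletion cannot be told apart. The labels do not say how many worms went into a library.

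In meiotic prophase the sister chromatids of each chromosome are organised along an axis of cohesin and HORMA-domain proteins. The synaptonemal complex then assembles between the axes of paired homologues and keeps them aligned while crossovers form. In C. elegans, REC-8 is a meiosis-specific kleisin subunit of cohesin, HTP-3 is the HORMA-domain protein that recruits the others, and HIM-3, HTP-1 and HTP-2 bind to the axis through it. SYP-1, SYP-2, SYP-3 and SYP-4 depend on one another to build the central region of the complex. LAB-1 sits on the long arm of the bivalent, where it recruits the PP1 phosphatase and protects cohesin from Aurora B until the second meiotic division. All these proteins act in germ cells, the cells in which TIR1 was expressed.

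The libraries held 18153020 to 30747645 reads on protein-coding genes and 186471 to 885408 reads on intron intervals. The targeted gene, mog-7, was at 39.5 CPM ± 1.75 (SD, n = 6) with ethanol, at 39.5 ± 3.21 after 1 h and at 42.6 ± 2.71 after 2 h. The degron acts on the protein, so this level is no check of the depletion. Levels are in CPM, counts scaled to library size with the cpm function and TMM factors of edgeR. Germline markers were present in every library: the summed level of 12 of them was 3755 to 4486 CPM with ethanol, 3671 to 4135 after 1 h and 3171 to 3841 after 2 h. Of these 12 markers, 3 fell and 1 rose at 1 h, and 7 fell at 2 h, with a median log2 change of -0.27 at 2 h. Of all genes tested, 6.93% fell and 3.62% rose at 1 h, and 20.1% fell and 14.5% rose at 2 h. The summed level of 4 body wall muscle markers was 4864 to 6148 CPM with ethanol and 5535 to 7135 at 2 h, where 2 of the 4 rose. That of 4 intestinal markers was 30843 to 46703 CPM with ethanol and 37594 to 51457 at 2 h. The summed level of 8 sperm markers was 333.6 to 488.6 CPM with ethanol and 371.1 to 548.5 at 2 h. Of the intestinal and sperm markers, 0 of 4 and 0 of 8 were called at either time. Of 4 hypodermis markers 0 were called, and of 4 neuronal markers 1 rose and 1 fell at 2 h. Of 5 markers of the zygotic embryo, end-1, pes-10 and hlh-27 stayed under 0.164 CPM in every library. That is the highest level that 3 counts gave in any library. The summed level of all 5 was 0.0882 to 0.628 CPM with ethanol and 0.0879 to 0.274 at 2 h, and 0 of the 5 were tested. In these whole-worm libraries, fewer germ cells and less of an RNA per germ cell cannot be told apart, and the part of the falling germline markers in the changes given below was not tested.

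The 10 genes lie on chromosomes I, IV and V in the WBcel235 annotation, and they are short genes with small introns. Of their 45 intervals, all match annotated introns between coding exons and none overlaps an exon of another gene. Introns 4 to 6 of rec-8 are 442, 497 and 472 bases long, and the other 42 are 42 to 170 bases. Intron 2 of him-3 and intron 1 of syp-3 were not analysed here. The gene syp-1 (V:16404274-16407701, plus strand) shares 1075 bases with F13A7.14 on the same strand, so its counts are uncertain. The genes syp-3, him-3 and lab-1 share 61, 24 and 52 bases with genes on the opposite strand, mrt-1, prkl-1 and T05F1.11. The paralogues htp-1 (IV:5390189-5391557, minus strand) and htp-2 (IV:6419522-6420898, plus strand) may share reads, and their sequences were not compared here. How the authors counted reads that fit both is not stated, so the division of reads between this pair is uncertain as well.

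Per length, the HORMA-domain gene him-3 had the most mRNA in ethanol, at 87.2 CPM per kb ± 3.42 (SD, n = 6). The other HORMA-domain genes of the outer axis followed, htp-1 with 68.8 ± 6.94 and htp-2 with 55.8 ± 2.55 CPM per kb. The levels of htp-1 and htp-2 overlapped between libraries, while every library of him-3 lay above those of htp-1. Next came 3 genes of the central region, syp-2 with 44.1 ± 3.59, syp-4 with 38.3 ± 3.23 and syp-3 with 33.4 ± 2.50 CPM per kb, and then htp-3 with 29.0 ± 2.69 and lab-1 with 27.2 ± 0.701 CPM per kb. Each neighbouring pair from syp-2 to lab-1 overlapped. At the low end were syp-1 with 21.0 ± 1.12 and the cohesin gene rec-8 with 20.7 ± 1.40 CPM per kb, which overlapped each other and lay below lab-1 in every library.

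After auxin the mRNA of these genes fell in part and by small amounts, while their introns were read many times more often. At 1 h, him-3, syp-2, syp-3 and lab-1 fell by 13.2% to 17.9%. At 2 h these 4 were lower by 13.2% to 29.7%, and htp-1, htp-2 and syp-4 were called lower as well. The change of htp-1, htp-2 or syp-4 from 1 h to 2 h did not itself pass the test. The mRNA of htp-3, rec-8 and syp-1 passed the test at neither time, and no gene of the 10 rose. With the batch as a block in the model, htp-2 and rec-8 were also called lower at 1 h, and syp-4 and htp-1 between the times. Intron reads rose for every gene of the 10 except lab-1, whose introns held too few reads for the same test.

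**Figure D1:**
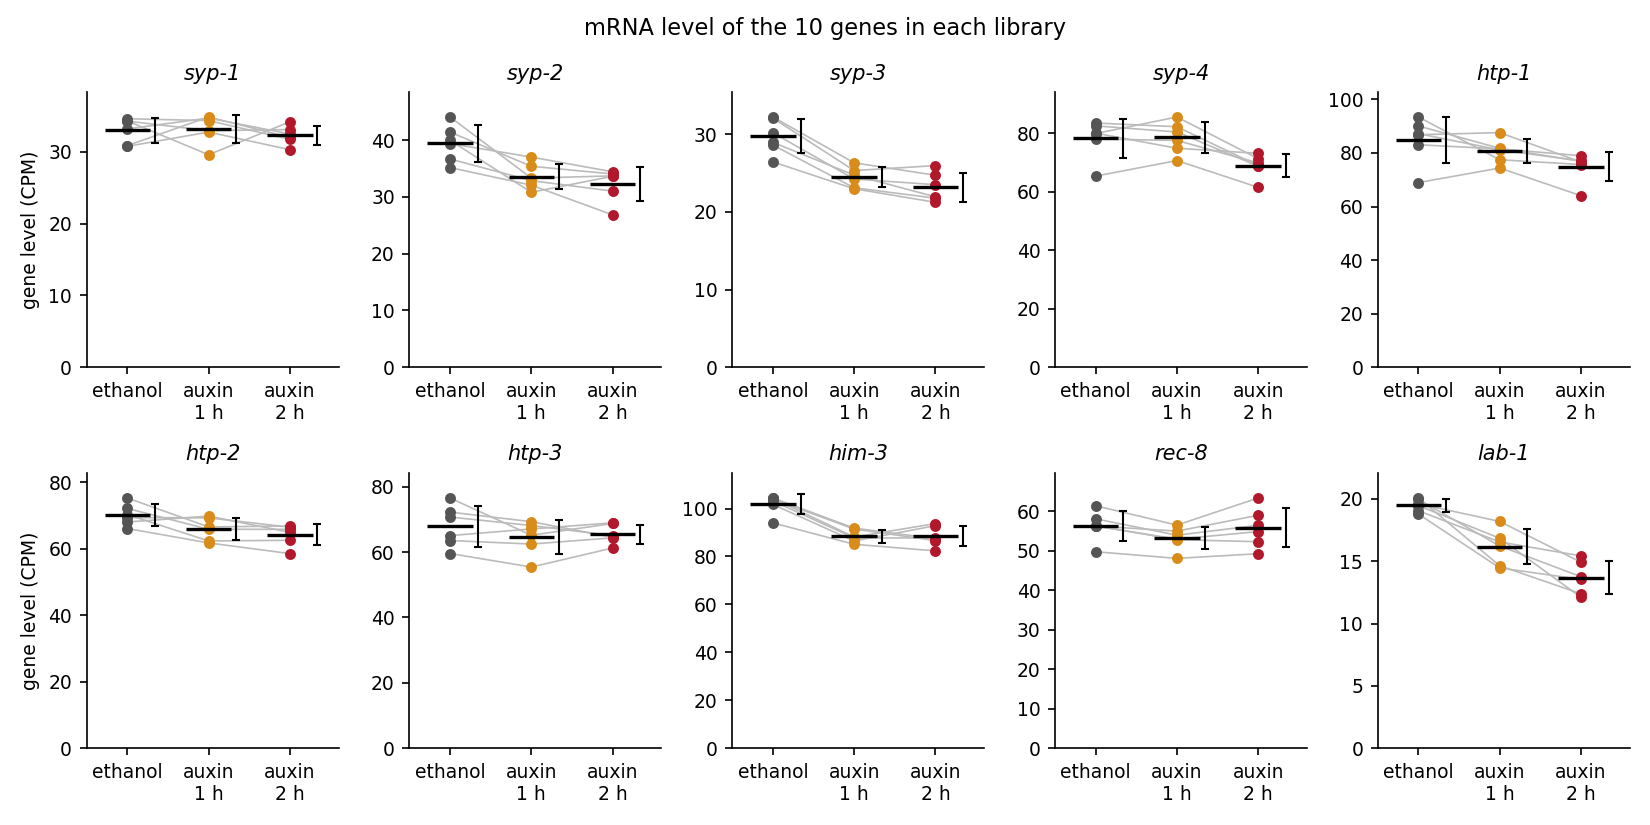
Level of each gene in CPM (linear axis from 0) in the 18 libraries, by group. Points are libraries, grey lines join the libraries of a batch, black lines are group means and the bars beside them the SD over 6 libraries. The level of lab-1 falls from 18.8 to 20.1 CPM with ethanol to 12.1 to 15.4 CPM after 2 h, while the groups of syp-1 overlap.

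The counts were compared with the quasi-likelihood test of edgeR in a model over all 18 libraries, with Benjamini-Hochberg adjustment over 13969 genes and calls at an adjusted p under 0.05. All 10 genes passed the filter on low counts. At 1 h, 4 of the 10 fell and 0 rose, against 6.93% of all genes that fell and 10.6% that changed in either direction. At 2 h, 7 of the 10 fell and 0 rose, against 20.1% of all genes that fell and 34.6% that changed. From 1 h to 2 h, 1 of the 10 fell, against 3.95% of all genes that fell and 6.89% that changed. The median log2 change of the 10 genes was -0.09 at 1 h, -0.18 at 2 h and -0.05 between the times, and the medians over all genes were 0.001, 0.07 and 0.03. The 12 germline markers had medians of -0.14, -0.27 and -0.10. Of these markers, 3 fell and 1 rose at 1 h and 7 fell at 2 h, and a difference from the 10 genes was not tested. The same ethanol libraries serve both auxin comparisons. Of the 10 genes, 2 were called at 1 h without batch I, VII or VIII, and 4 at 2 h without batch I or VII. Between the times 0 were called without any batch other than X, and 2 without X. With the batch as a block in the model, 6 of the 10 were called lower at 1 h, 7 at 2 h and 3 between the times, and 30.7%, 56.8% and 32.7% of all genes were called in either direction. Called lower in that fit were 2543, 3706 and 2278 of the 13969 genes. With library sizes alone in place of TMM factors, the calls over all genes at 2 h were 1358 higher and 3218 lower, against 2032 and 2804 with TMM, and the 10 genes still gave 4 and 7 calls, all lower.

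The long-arm protein gene lab-1 (I:9657012-9658023, minus strand) had the largest fall of the 10 at 2 h. Its lowest, median and highest levels were 18.8, 19.5 and 20.1 CPM with ethanol, 14.5, 16.4 and 18.2 CPM after 1 h and 12.1, 13.6 and 15.4 CPM after 2 h. No library with auxin reached an ethanol library. The log2 change was -0.27 at 1 h (SE 0.0666, adjusted p = 0.0108) and -0.51 at 2 h (SE 0.0674, adjusted p = 1.07e-05), lower in 6 of 6 batches each time. It was also the single gene of the 10 that fell between 1 h and 2 h, by 0.24 on the log2 scale (SE 0.0677, adjusted p = 0.0397), again in 6 of 6 batches. The 2 h call passed under every alternative run, whereas the 1 h call was lost without batch I, VII or VIII and the change between the times was lost without any batch other than X, with no filter and with only the groups compared in the fit.

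Among the genes of the central region, syp-3 (I:8663045-8664445, minus strand) fell at both times. Its lowest, median and highest levels were 26.4, 29.6 and 32.2 CPM with ethanol, 23.0, 24.5 and 26.3 CPM after 1 h and 21.2, 22.7 and 26.0 CPM after 2 h, so that every auxin library lay below every ethanol library. The log2 change was -0.28 at 1 h (SE 0.0599, adjusted p = 0.00347) and -0.36 at 2 h (SE 0.0602, adjusted p = 0.000141). For syp-2 (V:5536487-5537717, plus strand) the lowest, median and highest levels were 35.2, 39.7 and 44.1 CPM with ethanol, 30.8, 33.1 and 37.03 after 1 h and 26.8, 33.7 and 34.4 after 2 h. These overlapped at 1 h and did not at 2 h. The log2 change of syp-2 was -0.23 at 1 h (SE 0.0656, adjusted p = 0.0254) and -0.29 at 2 h (SE 0.0659, adjusted p = 0.00212). Its 1 h call was lost without batch I, II, VII or VIII. With the batch as a block and all batches kept, the adjusted p of syp-2 at 1 h was 0.000205.

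Of the other genes of the central region, syp-4 was called lower against ethanol at 2 h alone and syp-1 at neither time. The levels of syp-4 (I:6847511-6849923, plus strand) ran from 65.3 to 83.5 CPM with ethanol (median 79.9), from 70.6 to 85.5 after 1 h (median 79.0) and from 61.5 to 73.1 after 2 h (median 69.4). Its groups overlapped, with batch X lowest in each. Within batches, syp-4 at 2 h was 82.5% to 94.1% of its ethanol level. The log2 change was 0.01 at 1 h (SE 0.0585, adjusted p = 0.979) and -0.18 at 2 h (SE 0.0588, adjusted p = 0.0201; lost without batch I, V or VII). Between the times it was -0.19 (SE 0.0587, adjusted p = 0.0561), lower in 6 of 6 batches, and with the batch as a block the adjusted p was 0.000111. For the change of syp-4 at 2 h the block gave an adjusted p of 5.27e-05. The gene syp-1 stayed between 29.6 and 34.9 CPM in all 18 libraries. Its log2 change was 0.01 at 1 h (95% interval -0.09 to 0.11) and -0.03 at 2 h (-0.13 to 0.07).

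**Figure D2:**
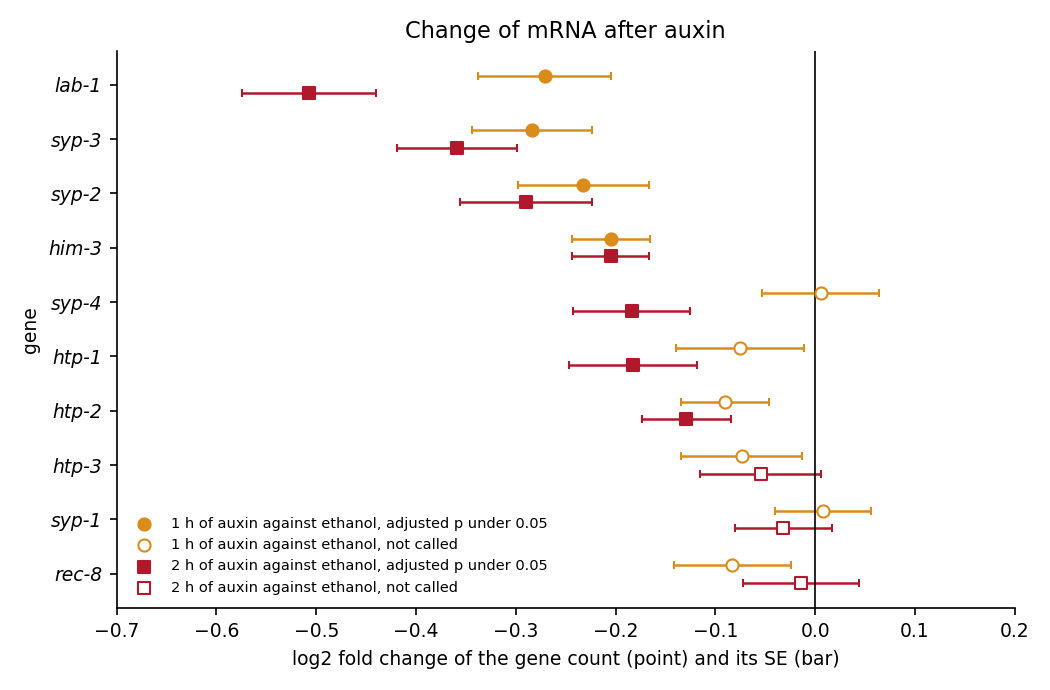
Log2 fold change of the gene count against ethanol (points) with its standard error (bars) for the 10 genes, after 1 h (circles) and 2 h (squares) of auxin, ordered by the 2 h value. Filled points passed an adjusted p under 0.05; lab-1, syp-3, syp-2 and him-3 are filled at both times.

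Of the HORMA-domain genes, him-3 (IV:6977508-6978765, plus strand) fell at 1 h and was at a similar level at 2 h. The lowest, median and highest values were 94.0, 103.5 and 104.4 CPM with ethanol, 85.1, 87.9 and 91.8 CPM after 1 h and 82.3, 87.6 and 93.7 CPM after 2 h. All auxin libraries lay below all ethanol libraries. The log2 change was -0.20 at 1 h (SE 0.0388, adjusted p = 0.00132) and -0.20 at 2 h (SE 0.0388, adjusted p = 0.000457). Between the times it was within 0.08 of 0 on the log2 scale by its 95% interval (-0.08 to 0.08, adjusted p = 0.996).

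The paralogues htp-1 and htp-2, whose reads may be exchanged, changed less. The levels of htp-1 were 68.9 to 93.4 CPM with ethanol (median 87.0), 74.4 to 87.6 after 1 h (median 81.3) and 64.0 to 79.0 after 2 h (median 76.8). Those of htp-2 were 66.1 to 75.3 CPM with ethanol (median 69.9), 61.8 to 69.9 after 1 h (median 66.2) and 58.6 to 66.9 after 2 h (median 65.4). For both, the groups overlapped and batch X was lowest in each group. At 2 h the log2 change was -0.18 for htp-1 (SE 0.064, adjusted p = 0.0323) and -0.13 for htp-2 (SE 0.0444, adjusted p = 0.0289), lower in 6 of 6 batches for each. The htp-1 call was lost without any batch other than X, with no filter on low counts and with only the groups compared in the fit, and the htp-2 call was lost without batch I, II, VII or VIII and with no filter. The fits that left out a batch held no block. With the batch as a block and all batches kept, both were called lower at 2 h (adjusted p = 0.000159 for htp-1 and 0.00107 for htp-2). That fit also called htp-2 lower at 1 h (log2 change -0.09, adjusted p = 0.0284 against 0.221 without the block), and htp-1 between the times (-0.11, adjusted p = 0.0231 against 0.329).

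The HORMA-domain scaffold htp-3 and the cohesin gene rec-8 showed no change that passed the test. The levels of htp-3 (I:4827072-4829791, plus strand) were between 55.4 and 76.5 CPM over all libraries, and its log2 change was -0.07 at 1 h (95% interval -0.20 to 0.05) and -0.05 at 2 h (-0.18 to 0.07). The levels of rec-8 (IV:13349122-13353193, minus strand) were between 48.1 and 63.4 CPM. Its log2 change was -0.08 at 1 h (95% interval -0.20 to 0.04), lower in 6 of 6 batches, and -0.01 at 2 h (-0.14 to 0.11), lower in 4 of 6. The rec-8 value at 1 h passed when the batch was a block (adjusted p = 0.04 against 0.429).

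In their introns the same genes changed far more. The intron reads of a gene were summed over all its intervals and set against 1000 reads of the gene itself. They were also tested as counts, scaled by the totals and TMM factors that the gene counts gave. Scaling on the intron counts was run for single introns and not for these sums. The sums of 9 of the 10 genes passed the filter on low counts, and 9 of 9 rose at 1 h and at 2 h, against 70.5% and 75.3% of the 6614 genes tested. The filter keeps a gene for its reads after auxin too, so these counts are read beside that background alone. The median log2 change of the 9 sums was 4.17 at 1 h and 4.51 at 2 h, and over all tested sums it was 1.53 and 1.74. All tested sums include genes of somatic cells, which keep the fusion protein. In the 3 lists of related genes described below, the medians were 2.85, 3.55 and 3.50 at 1 h and 3.41, 3.41 and 4.01 at 2 h. These differences were not tested. In each of these 9 genes, every auxin library lay above every ethanol library in intron reads per 1000 gene reads, as in 63.0% of all tested genes at 1 h and 65.6% at 2 h.

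**Figure D3:**
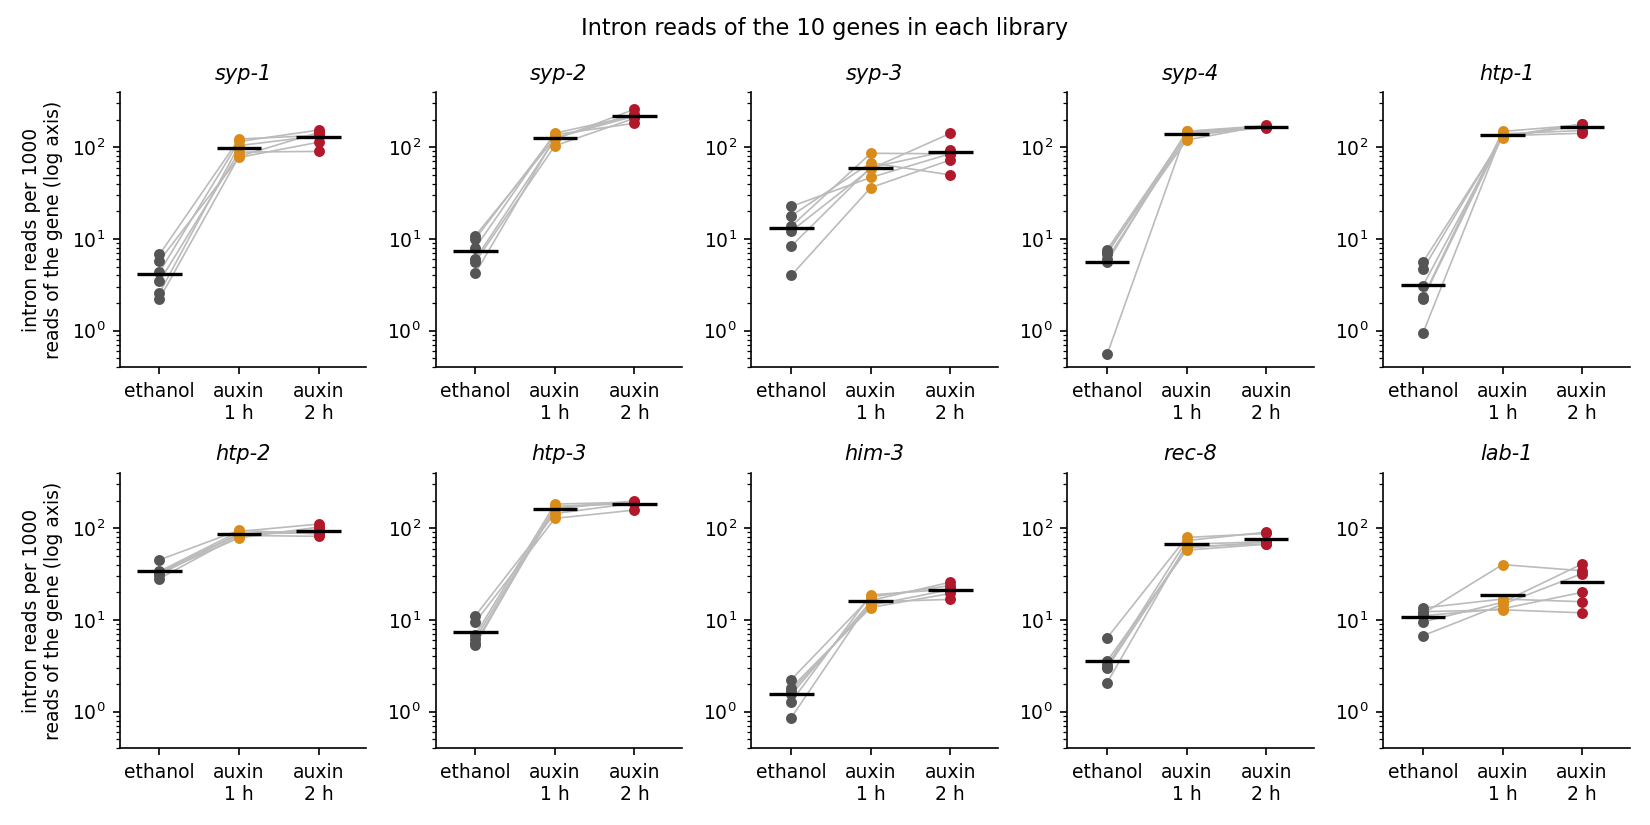
Intron reads per 1000 reads of the same gene (log axis) in the 18 libraries, by group. Points are libraries, grey lines join the libraries of a batch and black lines are group means. In 9 genes the auxin libraries lie above all ethanol libraries, and in lab-1 the groups overlap.

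With ethanol the intron sums held 2 to 12 reads per library for htp-1, 3 to 6 for rec-8 and 2 to 6 for him-3, so the sizes of their changes rest on few reads. Among the axis genes, htp-1 rose most, though the division of reads between it and htp-2 is uncertain. Its 3 introns held 0.944, 2.70 and 5.597 reads per 1000 gene reads at the lowest, median and highest ethanol library, 127, 133 and 149 after 1 h and 142, 173 and 180 after 2 h. The log2 change of the summed count was 5.28 at 1 h (SE 0.177, adjusted p = 1.89e-26) and 5.47 at 2 h (SE 0.176, adjusted p = 2e-27). The scaffold gene htp-3 followed, from 5.36 to 11.1 reads per 1000 with ethanol (median 6.54) to 128 to 183 after 1 h (median 167) and 158 to 199 after 2 h (median 189). The log2 change of its sum was 4.28 at 1 h (SE 0.164) and 4.51 at 2 h (SE 0.163), although its mRNA level had not passed the test at either time. For rec-8 the introns held 2.06 to 6.38 reads per 1000 with ethanol (median 3.11), 57.7 to 79.4 after 1 h (median 64.8) and 66.8 to 90.5 after 2 h (median 71.1), with log2 changes of 4.17 (SE 0.199) and 4.42 (SE 0.196).

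The rise was smaller for him-3 and smallest of the 9 for htp-2. Reads of the him-3 introns were 0.86 to 2.24 per 1000 with ethanol (median 1.61), 13.7 to 18.7 after 1 h (median 16.05) and 16.7 to 25.8 after 2 h (median 21.6), and the log2 change was 3.09 (SE 0.244) and 3.50 (SE 0.236). Those of htp-2 were 28.3 to 45.2 per 1000 with ethanol (median 32.9), 78.5 to 94.8 after 1 h (median 86.8) and 81.6 to 111 after 2 h (median 92.4), a log2 change of 1.26 (SE 0.12) and 1.34 (SE 0.12).

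Of the central region genes, syp-4 went from 0.551 to 7.62 intron reads per 1000 with ethanol (median 6.47) to 120 to 149 after 1 h (median 142) and 163 to 173 after 2 h (median 166), with log2 changes of the sum of 4.61 (SE 0.177) and 4.68 (SE 0.177). For syp-1 the values were 2.23 to 6.77 with ethanol (median 3.90), 77.4 to 123 after 1 h (median 96.2) and 90.1 to 154 after 2 h (median 134), and the log2 changes 4.46 (SE 0.246) and 4.82 (SE 0.24). Its mRNA stayed within the narrow range given above. For syp-2 they were 4.22 to 10.8 with ethanol (median 7.01), 104 to 142 after 1 h (median 126) and 182 to 259 after 2 h (median 219). The 3 groups of syp-2 did not overlap, and the log2 changes were 3.80 (SE 0.18) and 4.54 (SE 0.172). The sums of syp-3 rose less, from 4 to 22.6 per 1000 with ethanol (median 13.0) to 36.3 to 85.9 after 1 h (median 59.1) and 49.9 to 142 after 2 h (median 84.8), with log2 changes of 1.82 (SE 0.276) and 2.31 (SE 0.265). In the 8 sums from htp-3 to syp-3 given with a standard error alone, the adjusted p of the edgeR test was at most 1.44e-07.

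The introns of lab-1 were the exception. Their sum was 3 to 7 reads per library with ethanol, 5 to 12 after 1 h and 4 to 11 after 2 h, under the filter. Per 1000 gene reads this was 6.74 to 13.5 with ethanol (median 11.4), 12.9 to 40.1 after 1 h (median 15.2) and 12.0 to 40.7 after 2 h (median 26.0). The groups overlapped, and the value was above that of ethanol in 6 of 6 batches at 1 h and in 5 of 6 at 2 h. Without the filter, a setting added after the data were seen, the log2 change of the sum was 0.45 at 1 h (95% interval -0.34 to 1.25, adjusted p = 0.45) and 0.68 at 2 h (-0.11 to 1.46, adjusted p = 0.192). At both times these intervals overlap that of htp-2 (0.993 to 1.53 at 1 h, 1.07 to 1.605 at 2 h) and lie below those of the other 8 genes in the same fit, the lowest of which, for syp-3, begin at 1.37 and 1.88. Relative to the falling lab-1 count itself, the 2 h change of 1.18 passed (adjusted p = 0.0111) and the 1 h change of 0.73 did not (adjusted p = 0.193).

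From 1 h to 2 h, 3 of the 9 sums rose further, against 30.1% of all sums tested. That of syp-2 rose by 0.74 on the log2 scale (SE 0.114, adjusted p = 4.89e-06), with every 2 h library above every 1 h library. Those of him-3 (0.41, SE 0.159, adjusted p = 0.0448) and syp-1 (0.36, SE 0.143, adjusted p = 0.0496) rose in 6 of 6 batches with overlapping groups. The him-3 call was lost without batch I, V, VII, VIII or X, and that of syp-1 without batch I, II, V, VII or VIII; both were lost with no filter. Of the 9 sums, 1 was called without batch I, VII or VIII. With the batch as a block, 5 of 9 were called, now with syp-3 (0.49, adjusted p = 0.0271 against 0.0757) and htp-3 (0.24, adjusted p = 0.0299 against 0.112). Relative to the host gene, 6 of 9 were called, now with htp-1, syp-3 and syp-4 at changes of 0.30, 0.57 and 0.27.

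Taken singly, 36 of the 45 introns passed the filter, none of them in lab-1, and all 36 rose at 1 h and at 2 h, against 83.2% and 85.1% of the 15325 introns tested. The filter keeps an intron for its reads after auxin too, so these counts are read beside that background alone. With no filter, 41 of the 45 were called higher at 1 h and 42 at 2 h, against 23519 and 25753 of 82049 introns. In 34 of the 36 every auxin library lay above every ethanol library at both times, which held for 74.7% of all tested introns at 1 h and 77.9% at 2 h. In 21 of the 36 all ethanol libraries were at or under 3 reads, so the fitted median log2 changes of 4.35 at 1 h and 4.55 at 2 h are not estimates of size. With those introns at their lower bound the medians were 3.23 and 3.48. The fitted medians over all introns were 2.93 and 3.33. Among all introns, 5596 of 15325 were likewise at or under 3 reads in every ethanol library. They were not set at a bound, so 2.93 and 3.33 are not like for like with 3.23 and 3.48. When TMM factors came from the intron counts instead, the calls over all introns at 2 h changed from 13045 higher and 210 lower to 8271 higher and 5048 lower. Under that scaling 34 of the 36 introns of these genes were tested, and 32 were called higher and 2 lower at both times. The 2 called lower were intron 3 of htp-2 and intron 5 of syp-3.

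**Figure D4:**
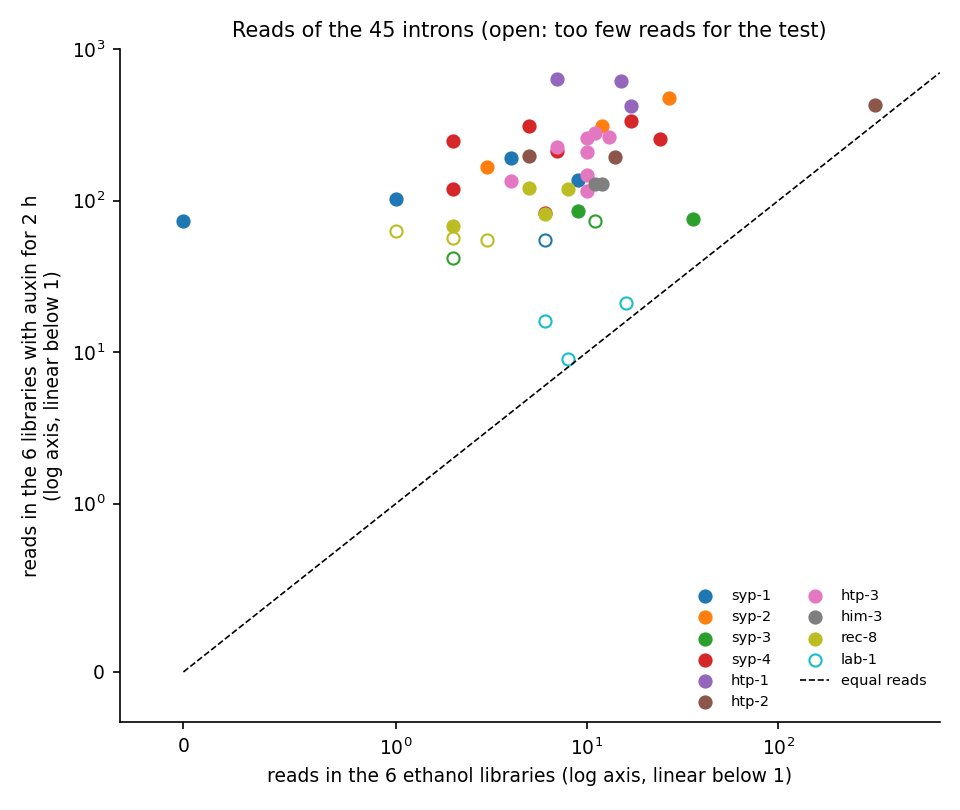
Reads of each of the 45 introns summed over the 6 ethanol libraries (horizontal) and over the 6 libraries with auxin for 2 h (vertical), both on log axes that are linear below 1; the dashed line marks equal reads and open points were under the filter. Intron 3 of htp-2, at 319 and 426 reads, and the introns of lab-1 lie near the line, and syp-1 intron 2 is at 0 reads with ethanol.

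Intron 1 of htp-1 (IV:5391446-5391491, minus strand, 46 bases) held 0 to 3 reads per library with ethanol, 74 to 141 after 1 h and 99 to 116 after 2 h. Its totals over 6 libraries were 7, 645 and 637 reads, and the ratio of the totals per library size was 94.9 at 2 h (95% exact binomial interval 45.8 to 237, counting error alone). The neighbouring introns 2 and 3 of htp-1 went from 15 and 17 reads to 619 and 419 at 2 h, ratios of 43.0 and 25.7. Intron 4 of htp-3 (I:4827650-4827694, plus strand, 45 bases) went from 11 reads in total with ethanol to 286 after 1 h and 279 after 2 h, a ratio of 26.4 at 2 h (interval 14.6 to 53.6). All 8 introns of htp-3 were tested, and their 2 h ratios ran from 12.1 to 34.9.

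The introns of htp-2 differed among themselves. Introns 1 and 2 went from 5 and 14 reads with ethanol to 197 and 194 at 2 h, ratios of 41.1 and 14.4. Intron 3 (IV:6420568-6420616, plus strand, 49 bases) held 38 to 62 reads per library with ethanol, 55 to 92 after 1 h and 54 to 100 after 2 h. These groups overlapped. Its log2 change was 0.49 at 1 h (SE 0.14, adjusted p = 0.00121) and 0.47 at 2 h (SE 0.141, adjusted p = 0.00201), and with scaling on the intron counts it was -1.35 and -1.70. That intron held 319 of the reads that the htp-2 introns had with ethanol, against 5 and 14 in the others, so the small change of the htp-2 sum rests on it.

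In the cohesin gene rec-8 the intervals of the ratios of long and short introns overlapped. Intron 6 (IV:13349482-13349953, minus strand, 472 bases) had 0 to 2 reads per library with ethanol, 17 to 33 after 1 h and 16 to 27 after 2 h, a ratio of totals of 25.4 at 2 h (interval 10.6 to 79.8). Introns 4 and 5 had ratios of 15.6 and 14.3, and the tested short intron 3 (48 bases) 35.5 (interval 9.44 to 299). In him-3, intron 3 (IV:6978203-6978249, plus strand, 47 bases) went from 11 reads in total with ethanol to 117 after 1 h and 128 after 2 h, a ratio of 12.1 at 2 h (interval 6.56 to 24.9).

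Among the central region genes, syp-4 intron 5 (I:6848632-6848692, plus strand, 61 bases) went from 17 reads to 375 at 1 h and 338 at 2 h, a ratio of 20.7 at 2 h (interval 12.8 to 36.0), and the ratios of its 7 introns ran from 11.2 to 129. Intron 1 of syp-1 (V:16406067-16406121, plus strand, 55 bases) went from 4 reads to 193 and 192, a ratio of 50.1 (interval 19.2 to 186). Intron 2 of syp-1 (V:16406298-16406345, 48 bases) had 0 reads in all ethanol libraries, 39 after 1 h and 73 after 2 h, and was at least 4.13-fold higher at 2 h when the ethanol libraries were set at the floor of 3 counts per library. Intron 2 of syp-2 (V:5537032-5537080, plus strand, 49 bases) went from 2 to 7 reads per library with ethanol to 40 to 67 and then 67 to 88, without overlap between the 3 groups. For syp-3 intron 5 (I:8663437-8663482, minus strand, 46 bases) the reads were 1 to 10 per library with ethanol, 6 to 15 after 1 h and 6 to 17 after 2 h. These overlapped, and the log2 change was 0.71 at 1 h (SE 0.33, adjusted p = 0.0433) and 1.13 at 2 h (SE 0.317, adjusted p = 0.000922), but -1.12 and -1.03 with scaling on the intron counts.

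Between 1 h and 2 h, 7 of the 36 introns rose further and 0 fell, against 30.2% of all introns that rose. They were all 3 introns of syp-2 (log2 changes of 0.63, 0.71 and 1.08), introns 2 and 5 of syp-1 (1.01 and 0.63), intron 7 of htp-3 (0.60) and intron 1 of him-3 (0.57), named after their values were seen. Without batch V or VII, 4 introns were called. The adjusted p of the edgeR test ran from 0.000151 for syp-2 intron 2 to 0.0408 for him-3 intron 1.

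Across the 10 genes, the log2 changes of mRNA and of the intron sum without the filter had a Spearman rho of 0.81 and a Pearson r of 0.67 at 1 h, and of 0.42 and 0.61 at 2 h. This is a description over 10 genes measured in the same libraries. At 2 h lab-1 had the lowest change of both.

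Other genes of the same structures were followed in 3 lists. The first holds 12 further genes of the synaptonemal complex and of its assembly. Here 0 genes changed at 1 h, where 5 were called lower with the batch as a block. At 2 h 5 of 12 fell (7 with the block), beside the 20.1% of all genes that fell without the block, with a median log2 change of -0.11 against 0.07 over all genes. With the block, 2543 of all 13969 genes were called lower at 1 h and 3706 at 2 h. The 5 that fell at 2 h without the block were the central region genes syp-5 (-0.17, SE 0.0587, adjusted p = 0.0304) and syp-6 (-0.22, SE 0.0616, adjusted p = 0.00863), the AAA+ ATPase gene pch-2 (-0.31, SE 0.0749, adjusted p = 0.00343), hal-3, whose product acts in homologue alignment (-0.30, SE 0.0602, adjusted p = 0.000804), and cra-1, an acetyltransferase subunit needed for assembly (-0.14, SE 0.0334, adjusted p = 0.00307). The ubiquitin ligase components skr-1 and skr-2, which also take part in the complex, were at 241 and 133 CPM with ethanol and at 237 and 133 CPM at 2 h.

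The second list holds 11 genes of cohesin and its loading and release. At 1 h, 1 of 11 rose and 1 fell, beside 3.62% and 6.93% of all genes. At 2 h, 3 rose and 3 fell, beside 14.5% and 20.1% of all genes, with a median of 0.02. With the batch as a block, 4 were called higher and 3 lower at 1 h, and 5 higher and 3 lower at 2 h, where pqn-85 (adjusted p = 0.00452) and evl-14 (0.00688) were added. Over all 13969 genes, that fit called 1743 higher and 2543 lower at 1 h, and 4224 higher and 3706 lower at 2 h. The kleisin genes went in different directions. The meiotic kleisin gene coh-3, whose product works beside REC-8, was at 29.8 CPM ± 2.79 (SD, n = 6) with ethanol, 19.4 CPM at 1 h and 15.6 ± 1.56 CPM at 2 h, a log2 change of -0.62 at 1 h (SE 0.077, adjusted p = 1.7e-05) and -0.93 at 2 h (SE 0.0782, adjusted p = 2.76e-08). Between the times it fell by 0.31 (SE 0.0789, adjusted p = 0.0198), the single call of the 3 lists without the block. With the block pch-2, hal-3, coh-1, coh-4, gsp-2 and hasp-1 were also called lower between the times, and scc-3 and bub-1 higher. Over all 13969 genes, 3.95% fell between the times without the block, and the block gave 2289 calls higher and 2278 lower. The related coh-4 fell by 0.18 (SE 0.0578, adjusted p = 0.0206) and the kleisin gene coh-1 by 0.42 on the log2 scale at 2 h (SE 0.083, adjusted p = 0.00062). The mitotic kleisin gene scc-1 rose by 0.33 at 1 h (SE 0.0715, adjusted p = 0.00457) and by 0.39 at 2 h (SE 0.0716, adjusted p = 0.000321). The core subunit genes scc-3 (0.19, adjusted p = 0.00291) and him-1 (0.16, adjusted p = 0.0241) rose at 2 h, and rec-8, at -0.01, lay between these and the falling kleisins.

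The third list holds 8 genes of chromosome segregation, with the Aurora B pathway that LAB-1 opposes. Of these 8, 1 fell at 1 h and 2 fell at 2 h, beside 6.93% and 20.1% of all genes, and 0 rose. The median log2 change of the list was -0.02 at 1 h and -0.03 at 2 h. The haspin kinase gene hasp-1, whose product marks the chromatin that Aurora B binds, fell by 0.19 at 1 h (SE 0.0494, adjusted p = 0.0135) and by 0.34 at 2 h (SE 0.0498, adjusted p = 3.16e-05). The PP1 phosphatase gene gsp-2, which LAB-1 brings to the long arm, fell by 0.18 at 2 h (SE 0.0515, adjusted p = 0.0114). The other 6, with the Aurora B kinase gene air-2 (51.6 CPM with ethanol, 53.8 CPM at 2 h), did not pass the test at either time. With the batch as a block, cmt-1 was called lower at 1 h (adjusted p = 0.00737) and at 2 h (0.000405), and sep-1 (0.0202) and bub-1 (0.0119) were called higher at 2 h. That fit called 2 of the 8 lower at 1 h, and 3 lower and 2 higher at 2 h. Its counts over all genes are given above. Intron sums rose at both times in 12 of 12, 9 of 9 and 8 of 8 tested genes of the 3 lists, beside 70.5% of all tested sums at 1 h and 75.3% at 2 h. Their median log2 changes at 2 h were 3.41, 3.41 and 4.01, and that of all tested sums was 1.74. Between the times 10 of 12, 5 of 9 and 7 of 8 of these sums rose, beside 30.1% of all tested sums, and a difference from the axis and central region genes was not tested.

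**Figure D5:**
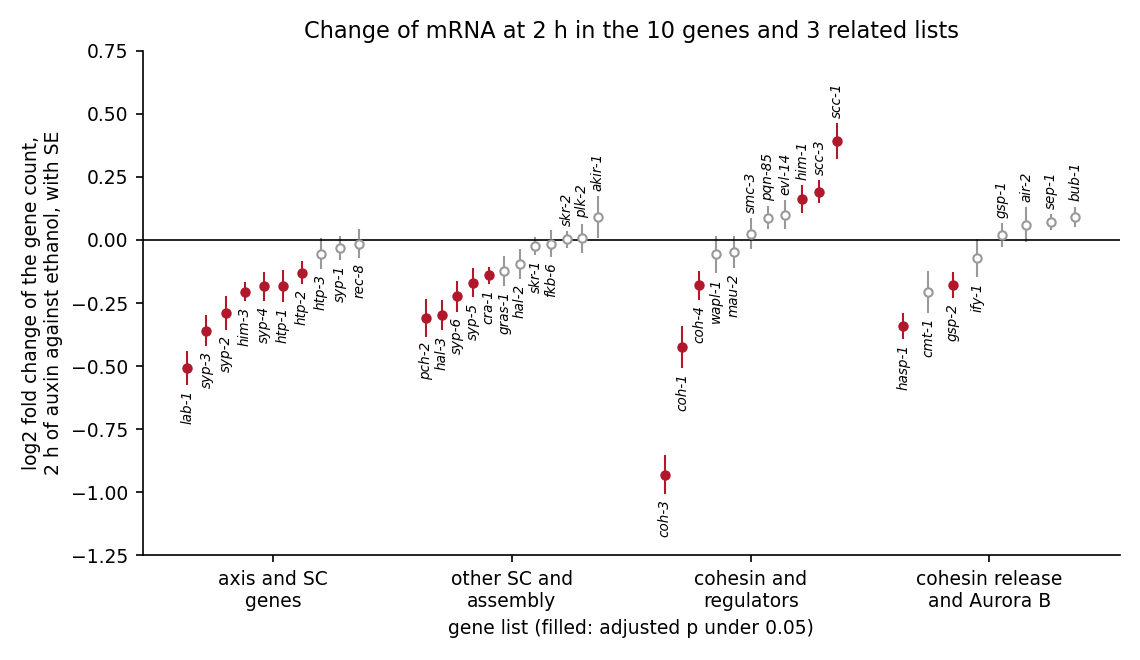
Log2 fold change of the gene count at 2 h of auxin against ethanol with its standard error, for the 10 axis and central region genes and 3 lists of related genes, each ordered by value. Filled points passed an adjusted p under 0.05; coh-3 is lowest at -0.93 and scc-1 highest at 0.39.

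For each of the 10 genes, the gene with the most similar course over the 18 libraries was sought among all genes tested, by the Pearson correlation of log2 CPM. The libraries share batch and group, so these values describe these libraries. They were highest for syp-3 with C35D10.6 (r = 0.96), lab-1 with bath-3 (0.942), him-3 with evl-20 (0.941) and syp-2 with xpg-1 (0.939), the 4 genes that fell at both times. The others were rec-8 with patr-1 (0.934), syp-4 with rpt-2 (0.934), htp-1 with tag-307 (0.919), htp-3 with edg-1 (0.884), htp-2 with mdt-6 (0.861) and syp-1 with T23G7.3 (0.768). In no case was the most similar gene another of the 10.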

How the data were processed

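Poly-A RNA of 18 samples was measured. The authors deposited raw read counts per protein-coding gene and per intron interval; both are whole numbers that were not normalized. Per the submitters' processing notes, the tools included Trimmomatic, cutadapt, STAR, SAMtools, Picard, featureCounts, limma and edgeR; roles, versions, genome build and the rule for reads that map to several places are not given in the sources used here. The libraries were stranded, per the labels' protocols, and the gene table is named as reverse-strand counts; the strand setting of the intron table is not stated, so reads of overlapping antisense genes may enter there. The build was taken as WBcel235, because 104851 of 106818 intervals (98.2%) match introns of its annotation (Ensembl release 115). The other deposited number, a length in bases per gene or interval as given by the authors, was used for levels per kb.

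Genes were tested with edgeR 4.0.16 (glmQLFit, glmQLFTest; R 4.3.3) after filterByExpr with a minimum count of 10, with TMM factors and the group as the single factor. Introns and intron sums per gene (intervals with a single host gene) used the gene table's library sizes and TMM factors. Standard errors are the log2 change over the square root of F. No library pair of a group agreed within sampling noise (chi-square per degree of freedom 3.9 to 25.4 over 45 pairs). The labels do not say whether batches are separate cultures, so p-values measure the spread between these libraries, which may be technical. The batch names in the labels pair the libraries: within batches, deviations from group means correlated at 0.146 to 0.674 over 18 pairs, and between batches at -0.522 to 0.386. Reads are not independent molecules, so intervals on totals and floors cover counting error only.

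Alternatives were the batch as a replicate block, library sizes alone, DESeq2 1.42.0, no filter, only the groups compared, TMM on intron counts, offsets from the host gene count (plus 0.5), annotated introns alone, and leaving out each batch. The fits that left out a batch held no block. The code was tested on simulated data. Named were the 10 genes, the tested intron with most reads per gene, related genes that were called and 1 most similar gene each. The members, lists and markers were chosen with earlier results of these data known.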

Additional observations from a re-analysis of the deposited data

Results flagged for a closer look

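A library stood apart from the other 5 of its group in 8 of 60 groups examined (Dixon's test at the 95% level), where chance gives about 1 in 20. For mRNA these were 3 libraries of batch X, each the lowest of its group: syp-4 with ethanol at 65.33 CPM (next 78.02), him-3 with ethanol at 94.0 CPM (next 101.7) and htp-1 after 2 h at 64.04 CPM (next 75.69). Without batch X the syp-4, him-3 and htp-1 calls at 2 h were kept.

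For intron reads per 1000 gene reads, the library that stood apart was the lowest for syp-4 with ethanol in batch VIII at 0.551 (next 5.568) and for htp-3 after 2 h in batch II at 157.5 (next 187.1). It was the highest for htp-2 with ethanol in batch VII at 45.22 (next 33.86), for rec-8 with ethanol in batch X at 6.376 (next 3.566) and for lab-1 after 1 h in batch VIII at 40.13 (next 16.91). The values of syp-4, rec-8 and lab-1 rest on 1, 6 and 12 intron reads.

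The effect at 2 h differed from that at 1 h, by the test of the difference itself, in 4 results. The mRNA of lab-1 was lower by -0.237 on the log2 scale at 2 h than at 1 h. The intron sums of syp-2, him-3 and syp-1 were higher by 0.739, 0.411 and 0.363.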

How the results depend on the processing

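Each value was recomputed under the alternatives. At 2 h the calls of lab-1, syp-3, syp-2 and him-3, and all 9 intron sums at both times, passed under every alternative run on them. TMM on the intron counts was not run on the sums. Under that scaling intron 3 of htp-2, on which the htp-2 sum rests, was lower after auxin, as given below. The number of the 10 genes called lower was 2 to 4 at 1 h (4 with all batches), 4 to 7 at 2 h (7) and 0 to 2 between the times (1) when batches were left out in turn. Between the times it was 3 with the replicate block, 2 with library sizes alone, 2 with DESeq2 and 0 with no filter. With no filter more genes are tested; the cause of the other shifts was not tested. Blocked, 6 genes were called at 1 h. For the paired fits the block turned no direction and otherwise added calls alone. Between the times the count of introns called (7, all higher) was 3 with TMM on the intron counts (2 higher, 1 lower) and 4 to 7 without 1 batch. The count of intron sums that rose (3) was 5 with the replicate block, 6 relative to the host gene and 1 to 2 without 1 batch. 

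Turned in sign were values near 0 and some introns. With library sizes alone the 1 h mRNA changes of syp-1 and syp-4 were -0.00102 and -0.00350. TMM on the intron counts gave -1.12 and -1.03 for syp-3 intron 5 and -1.35 and -1.70 for htp-2 intron 3 at 1 h and 2 h. It gave -0.226 for htp-3 intron 4, -0.332 for syp-4 intron 5, -0.214 for htp-1 intron 1, -0.0661 for him-3 intron 3 and -0.201 for syp-1 intron 1 between the times. There DESeq2 gave -0.00681 for syp-4 intron 5, and the host gene offset 0.0205 for htp-2 intron 3. Leaving out batches in turn gave -0.0191 to 0.0485 for syp-1 and -0.0143 to 0.0415 for syp-4 mRNA at 1 h and -0.0342 to 0.00384 for rec-8 mRNA at 2 h. Between the times it gave -0.0214 to 0.0149 for him-3 and -0.0147 to 0.0443 for htp-3 mRNA, -0.115 to 0.0976 for syp-4 intron 5 and -0.133 to 0.0566 for htp-2 intron 3.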
